A study of Homo sapiens with 208 samples.

Results

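The genes described here encode subunits of the transcription factor NF-κB and proteins that limit or carry its signal. They were listed by name as 10 genes, namely NFKB1, NFKB2, RELA, RELB, NFKBIA, NFKBIE, TNFAIP3, TNFAIP2, BIRC2 and BIRC3. A gene was found on the array through the RefSeq accession of its probes. Of the 10 genes, 8 had a matched probe, on 9 probes in all, and NFKB2 and RELA had none and are not analysed here. All 8 were among the 13261 genes tested, of 16961 genes with a matched probe. TNFAIP3 had 2 probes and each other gene had 1.

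PC9 cells are an established line from a human lung adenocarcinoma whose EGFR carries an activating deletion, and gefitinib inhibits the EGFR kinase. PC9M2, written PC9GRM2 in the sample labels, is 1 clone selected from PC9 by long exposure to gefitinib, so that what is particular to the clone cannot be told apart from resistance. The arrays form 8 time courses of 26 time points from 0 to 24 h, 1 for each line without treatment, with 0.5 μM gefitinib (written gefinitib in the labels), with 100 ng/ml EGF and with both agents. Cells of all 8 courses had been starved for 48 h, and gefitinib was given before the 0 h time point. Each time point was hybridized once, so there are no replicate arrays, and the spread between time points stood in for the replicate error. The p-values measure that spread alone, and neighbouring time points are not independent. RNA came from whole cultures, so that fewer cells of a kind and less RNA per cell cannot be told apart. The comparisons share courses with each other, for example the untreated course of a line, and are not independent. A value below is a log2 signal after quantile normalization over all arrays, and n is a number of time points. With 1 array a point, single values carry no error of their own.

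NF-κB is a family of dimeric transcription factors that IκB proteins hold in the cytoplasm. Receptors of the tumour necrosis factor family activate the IκB kinase complex, IκB is degraded and the dimers enter the nucleus. They induce cytokine and survival genes and also genes of their own inhibitors, which gives the pathway its negative feedback. In lung cancer cells with mutant EGFR, NF-κB activity is known for its part in survival under EGFR inhibitors.

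Arrays of 1 time point went against their labels. For each time point, the log2 differences of gefitinib with EGF against EGF alone were correlated across all tested genes with the mean differences of the other time points. In PC9M2 this correlation was -0.39 at 0.5 h and between 0.24 and 0.92 at the other time points. Genes are not independent replicates, and the value is given as a description. In PC9M2 at 0.5 h, the brighter TNFAIP3 probe read 7.42 on the array labelled EGF and 8.37 on the one labelled with both agents, while its gefitinib courses otherwise lay below the EGF course. Results that hold these arrays are given with and without 0.5 h where that changes the call. The untreated PC9M2 array at 11 h had the lowest correlation with the median of its course, at 0.942 against at least 0.975 for the others of that course.

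The labelled cell type was checked against markers. All 6 epithelial markers, EPCAM, CDH1, KRT7, KRT8, KRT18 and KRT19, were well above background on all 104 arrays of each line. PTPRC, the pan-leukocyte marker, was so on 1 of 104 PC9 arrays and 0 of 104 PC9M2 arrays, and COL1A2 of fibroblasts on 5 and 4. COL3A1 was so on 2 and 4, PDGFRB on 1 and 0, and COL1A1 had no matched probe. Of the lung markers, SFTPC and NAPSA were above background on all arrays, NKX2-1 on 72 and 99, and SFTPB on 46 and 43. CD3E and CD14 of the leukocyte list and PECAM1 and VWF of the endothelial list were above background on at least 96 arrays of each line, and CDH5 on 18 and 16. The part of such markers in the results was not tested. Over all arrays, between 24755 and 36332 of 45015 features were well above background.

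RefSeq gave promoter windows, from 250 bases before to 50 bases after a transcription start (GRCh38.p14), for 6 of the 8 measured genes, and RELB and NFKBIE had none in the table used here. The windows were searched on both strands for the κB consensus, the decamer to which NF-κB dimers bind, and overlapping matches were counted. A match was present for 4 of the 6, NFKB1, NFKBIA, TNFAIP3 and BIRC3, and no match for BIRC2 and TNFAIP2. Of all 35116 windows, 5.91% held a match, and of all 27305 genes with a window, 7.09% did so in at least 1. The windows of the 2 genes that fell most with gefitinib and of the best known feedback gene, NFKBIA, are printed here in the direction of transcription, with the matches in capitals.
TNFAIP3, chr6:137867009-137867308, plus strand: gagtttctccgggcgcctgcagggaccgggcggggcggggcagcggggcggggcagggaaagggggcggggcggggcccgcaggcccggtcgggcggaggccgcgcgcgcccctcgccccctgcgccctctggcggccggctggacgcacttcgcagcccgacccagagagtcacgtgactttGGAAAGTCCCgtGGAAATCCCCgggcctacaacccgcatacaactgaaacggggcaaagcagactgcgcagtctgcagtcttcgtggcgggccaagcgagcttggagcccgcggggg
BIRC3, chr11:102317234-102317533, plus strand: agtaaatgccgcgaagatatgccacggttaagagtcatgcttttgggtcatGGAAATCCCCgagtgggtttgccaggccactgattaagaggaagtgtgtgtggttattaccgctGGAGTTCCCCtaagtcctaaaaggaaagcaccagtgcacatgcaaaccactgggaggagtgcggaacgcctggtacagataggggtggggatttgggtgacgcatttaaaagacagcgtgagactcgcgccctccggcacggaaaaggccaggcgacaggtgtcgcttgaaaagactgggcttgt
NFKBIA, chr14:35404700-35404999, minus strand: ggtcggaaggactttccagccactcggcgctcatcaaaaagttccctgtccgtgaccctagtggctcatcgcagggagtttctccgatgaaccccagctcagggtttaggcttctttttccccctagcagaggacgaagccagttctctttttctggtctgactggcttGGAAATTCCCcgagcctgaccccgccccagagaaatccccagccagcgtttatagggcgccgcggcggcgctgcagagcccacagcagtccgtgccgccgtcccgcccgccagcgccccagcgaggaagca

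In TNFAIP3 the matches lay at -67 to -58 and -55 to -46 from the start, in BIRC3 at -199 to -190 and -135 to -126, and in NFKBIA at -81 to -72. The NFKB1 window at chr4:102501109-102501408 held GGGAATTTCC at -49 to -40. A match describes the letters only, and no binding was measured here.

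The effect of gefitinib was examined first in each line without EGF. A gene is said to fall or rise with gefitinib where it was lower or higher than in the matched course without gefitinib. In PC9, TNFAIP3 and BIRC3 fell most among the 8 genes, and RELB and NFKBIE fell by a smaller amount. NFKB1, NFKBIA and BIRC2 fell slightly, and TNFAIP2 alone rose. In all, 7 of the 8 genes were lower and 1 was higher by limma's test with Benjamini-Hochberg adjustment at 0.05. The background was high, since 72.2% of all tested genes were called, 37.4% as lower. The median difference of the 8 genes was -0.42 on the log2 scale, against -0.03 over all genes. In PC9M2, 5 genes were lower, TNFAIP2 was higher and BIRC2 and NFKBIA did not pass the test, against 66.5% of all genes called and 34% lower. There the median was -0.52, against -0.01 over all genes.

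**Figure D1:**
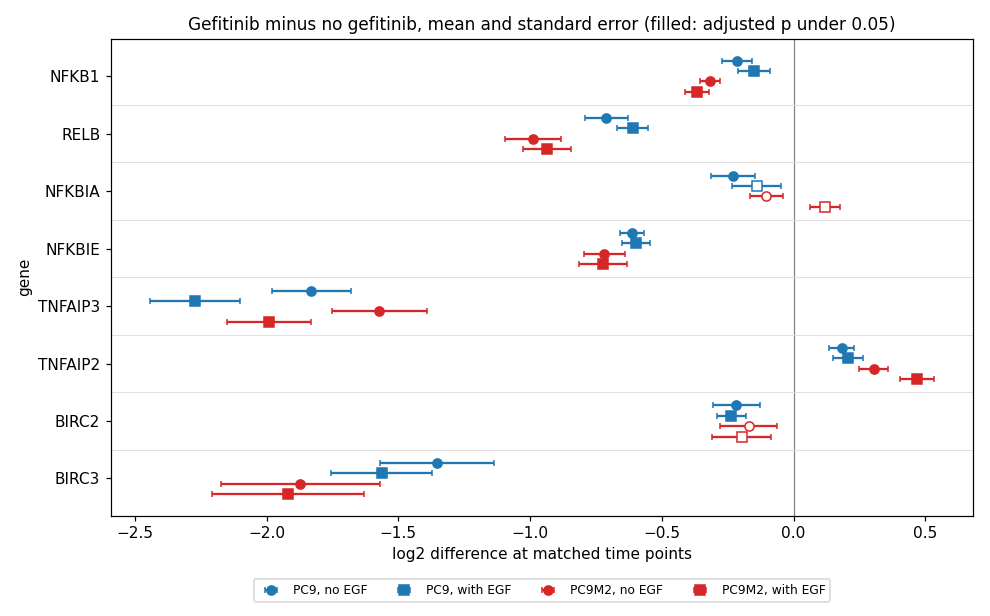
Mean log2 difference of gefitinib against no gefitinib at matched time points, with standard errors, for 8 genes in both lines without and with EGF. TNFAIP3 and BIRC3 lie furthest to the left, and TNFAIP2 is the only gene to the right of 0 in all 4 comparisons; open symbols did not pass the test.

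TNFAIP3 encodes A20, a ubiquitin-editing enzyme that shuts off signaling upstream of the IκB kinase. Its probe of larger variance, which represented the gene, ran from 6.86 to 8.97 with a median of 7.65 in untreated PC9 and from 4.53 to 7.01 with a median of 6.11 with gefitinib. The 2 courses overlapped only between 6.86 and 7.01, and gefitinib was lower at 25 of 26 time points. The mean difference was -1.83 (standard error, SE, 0.15, adjusted p = 1.67e-11), 3.56-fold lower. In PC9M2 the probe ran from 4.33 to 6.83 (median 5.87) untreated and from 1.87 to 6.22 (median 4.15) with gefitinib. It was lower at 26 of 26 time points, by 1.57 in mean (SE 0.18, adjusted p = 1.19e-08). With gefitinib this probe was well above background on 24 of 26 PC9 arrays and 14 of 26 PC9M2 arrays, so that the low PC9M2 values were measured near background. With normexp background correction, which adds an offset of 50 and so compresses low signals, the differences of this probe were -0.719 in PC9 and -0.213 in PC9M2 and stayed called.

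The other TNFAIP3 probe was brighter and well above background on all arrays. In PC9 it ran from 10.12 to 10.8 (median 10.46) untreated and from 7.72 to 9.82 (median 8.66) with gefitinib, so the courses did not overlap. In PC9M2 it ran from 8.04 to 9.29 (median 8.63) untreated and from 6.83 to 7.93 (median 7.35) with gefitinib, again without overlap. The mean differences were -1.76 (SE 0.11) in PC9 and -1.43 (SE 0.11) in PC9M2. The probes agreed in direction at a like size. They did not agree over time, since the brighter probe changed little in untreated PC9 (fitted range 0.28, adjusted p = 0.52) while the dimmer one changed by 1.86 (adjusted p = 2.54e-05).

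BIRC3 encodes cIAP2, a ubiquitin ligase that acts at tumour necrosis factor receptors and restrains cell death. In untreated PC9 it ran from 11.26 to 13.32 with a median of 12.54, and with gefitinib from 9.32 at 24 h to 12.09 at 4 h with a median of 11.27. The courses overlapped in the early hours and gefitinib was lower at 22 of 26 time points. The mean difference was -1.35 (SE 0.22, adjusted p = 2.7e-06). In PC9M2 it ran from 9.22 to 12.6 (median 11.1) untreated and from 8.22 to 10.59 (median 9.25) with gefitinib, lower at 24 of 26 time points by 1.87 in mean (SE 0.30, adjusted p = 3.4e-06). Successive differences were highly correlated there, with a lag-1 autocorrelation of 0.91, and with the variance inflated for it the PC9M2 call was lost (adjusted p = 0.233).

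**Figure D2:**
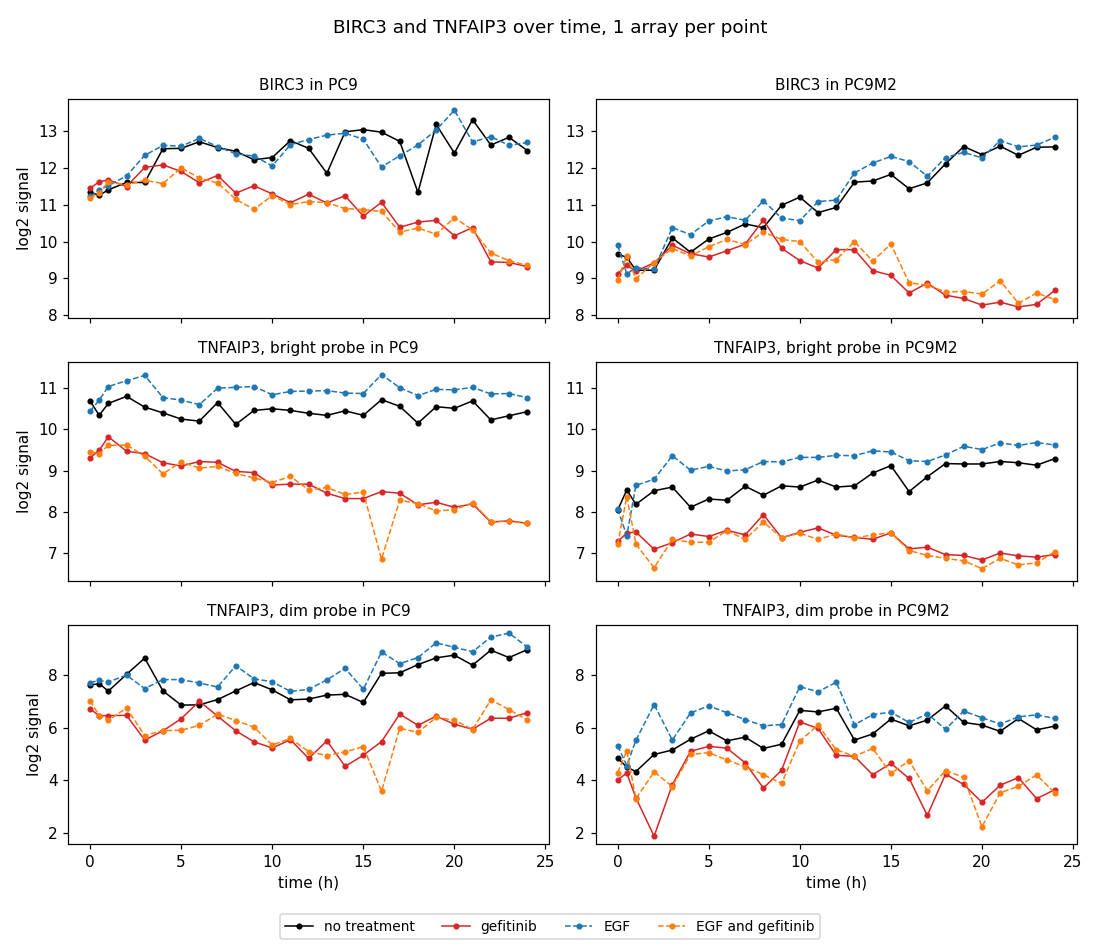
Log2 signal against time (h) for BIRC3 and both TNFAIP3 probes in PC9 (left) and PC9M2 (right), 1 array per point and 1 line per treatment. BIRC3 rose to 12.58 at 24 h in untreated PC9M2 and was 8.67 with gefitinib; at 0.5 h in PC9M2 the brighter TNFAIP3 probe is 7.42 on the array labelled EGF and 8.37 on the one labelled with both agents.

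RELB, the subunit of the alternative NF-κB pathway, ran from 13.02 to 14.7 (median 13.89) in untreated PC9 and from 12.66 to 13.73 (median 13.08) with gefitinib. It was lower at 25 of 26 time points, by 0.71 in mean (SE 0.08, adjusted p = 8.81e-09). In PC9M2 it ran from 12.48 to 14.92 (median 13.59) untreated and from 11.9 to 13.26 (median 12.68) with gefitinib, lower at all 26 time points by 0.99 (SE 0.11, adjusted p = 4.06e-09). The courses overlapped in both lines, while the paired arrays of a time point did not change order but for 1 in PC9.

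NFKB1, which encodes p105 and its product p50, moved little. It ran from 10.52 to 11.47 (median 10.93) untreated and 10.49 to 11.05 (median 10.79) with gefitinib in PC9. In PC9M2 its median was 10.51 untreated, with 10.83 the highest value, and 10.17 with gefitinib, with 9.85 the lowest. The mean difference was -0.21 in PC9 (SE 0.06, adjusted p = 0.00139), lower at 18 of 26 time points. In PC9M2 it was -0.32 (SE 0.04, adjusted p = 2.35e-08), lower at 25 of 26. The PC9 call was lost with the variance inflated for autocorrelation (adjusted p = 0.0522) and with time points 3 h apart (adjusted p = 0.394).

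NFKBIE encodes IκBε and NFKBIA encodes IκBα, the inhibitors that NF-κB itself induces. NFKBIE ran from 10.7 to 12 (median 11.4) in untreated PC9 and from 10.16 to 11.51 (median 10.76) with gefitinib, and was lower at all 25 time points compared, 1 spot being marked as an outlier. Its mean difference of -0.61 (SE 0.05, adjusted p = 6.03e-12) had the smallest spread of the 8 genes in PC9, with an SD of 0.17 over time points. In PC9M2 it was -0.72 (SE 0.08, adjusted p = 4.27e-09), lower at 26 of 26.

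NFKBIA ran from 13.54 to 15.51 (median 14.83) in untreated PC9 and from 13.81 to 15.18 (median 14.5) with gefitinib, where it was lower at 17 of 26 time points. The mean difference was -0.23 (SE 0.08, adjusted p = 0.0143), and the call was lost with unpaired courses (adjusted p = 0.119), with time points 3 h apart (adjusted p = 0.119) and with the inflated variance (adjusted p = 0.211). With normexp it was -0.511. It was saturated on 6 of 26 untreated PC9 arrays. In PC9M2 it differed by -0.10 (SE 0.06, adjusted p = 0.159), and with 75th percentile scaling of the arrays this difference passed at -0.20 (adjusted p = 0.0245).

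BIRC2, which encodes cIAP1, the close relative of cIAP2, differed by -0.22 in PC9 (SE 0.09, adjusted p = 0.0288), lower at 17 of 26 time points. That call was lost with the scan day as a random block (adjusted p = 0.112), without 16 h (adjusted p = 0.0521), with the inflated variance (adjusted p = 0.057) and with time points 3 h apart, where the difference was -0.071 (adjusted p = 0.763). In PC9M2 the difference was -0.17 (SE 0.11, adjusted p = 0.166). Its courses overlapped almost entirely, between 10.74 and 12.2 untreated and 10.66 and 11.92 with gefitinib in PC9.

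TNFAIP2, a gene induced by tumour necrosis factor whose product acts in membrane protrusions, rose with gefitinib. In PC9M2 it ran from 15.52 to 16.11 (median 15.81) untreated and from 15.55 to 16.44 (median 16.2) with gefitinib, higher at 21 of 26 time points by 0.30 (SE 0.06, adjusted p = 1.9e-05). In PC9 it was higher at 23 of 26 by 0.18 (SE 0.05, adjusted p = 0.00114), and that call was lost with time points 3 h apart (0.116, adjusted p = 0.394). With normexp the PC9 difference was 0.417. The probe was saturated on 24 of 26 untreated and 22 of 26 gefitinib arrays of PC9 and on 0 of PC9M2, so that PC9 values are compressed at the top.

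The gefitinib difference grew over the day for several genes. It was averaged over 0 to 5 h, 6 to 14 h and 15 to 24 h, and the late window was tested against the early one. For BIRC3 in PC9 the mean was 0.00 ± 0.41 (SD, n = 7) early, -1.13 ± 0.38 (SD, n = 9) in the middle and -2.50 ± 0.76 (SD, n = 10) late. In PC9M2 the same windows gave -0.18 ± 0.26, -1.19 ± 0.81 and -3.67 ± 0.65, the last a 12.7-fold lower level. Late minus early was -2.49 in PC9 (SE 0.27, adjusted p = 1.81e-08) and -3.49 in PC9M2 (SE 0.30, adjusted p = 3.26e-09).

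Of the 8 genes, 5 passed this late-minus-early test in PC9 and 6 in PC9M2, against 52.3% and 39.5% of all genes. RELB went from -0.33 to -1.04 in PC9 and from -0.48 to -1.53 in PC9M2 (late minus early -0.72 and -1.05, adjusted p = 2e-04 and 1.71e-05). The brighter TNFAIP3 probe was already lower in the early window, at -1.12 ± 0.22 in PC9 and -0.98 ± 0.31 in PC9M2, and reached -2.33 ± 0.24 and -2.05 ± 0.34 late (late minus early -1.21 and -1.08, adjusted p = 1.2e-07 and 5.72e-06). The dimmer probe, which represented the gene, passed as well (adjusted p = 0.0249 and 0.000998), but only 4 of 7 early and 3 of 10 late PC9M2 arrays with gefitinib measured it well above background, so no size is given for it. NFKBIA was at 0.17 ± 0.18 early and -0.62 ± 0.19 late in PC9, lower at all 10 late time points (late minus early -0.79, adjusted p = 2.26e-05). In PC9M2 its change of -0.35 did not pass (adjusted p = 0.0523) and passed without 11 h (adjusted p = 0.0283) or without 0.5 h (adjusted p = 0.0495).

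BIRC2 and NFKBIE changed with time in PC9M2. BIRC2 went from 0.28 ± 0.29 early to -0.70 ± 0.26 late (late minus early -0.98, adjusted p = 0.000137), and NFKBIE from -0.38 to -1.12 (-0.74, adjusted p = 2.19e-05). In PC9 the same contrasts were -0.41 (adjusted p = 0.0968) and 0.09 (adjusted p = 0.506). TNFAIP2 went from -0.05 to 0.44 in PC9M2 (adjusted p = 0.000128). NFKB1 moved the other way in PC9, from -0.38 early to -0.03 late (late minus early 0.35, adjusted p = 0.0158).

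**Figure D3:**
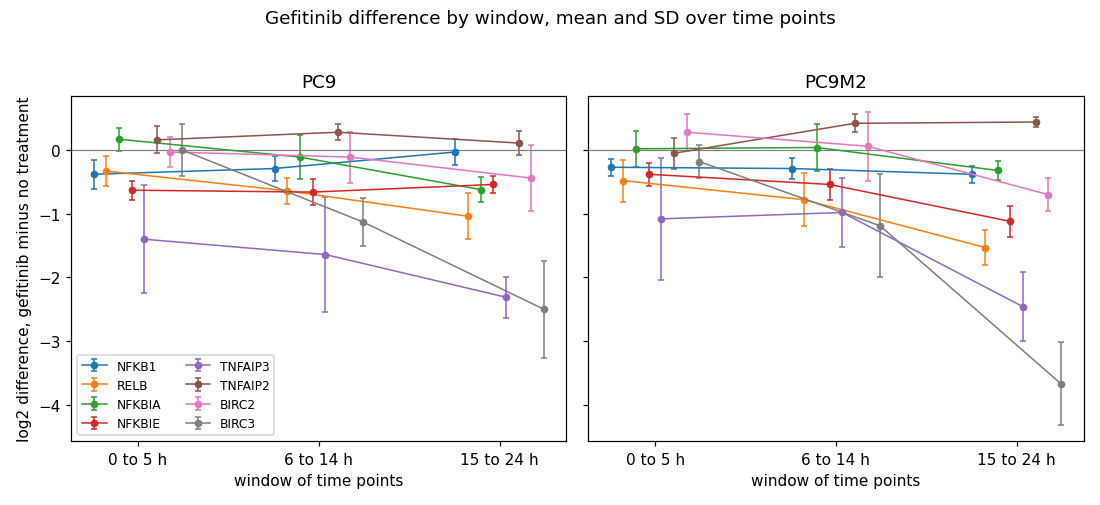
Mean log2 difference of gefitinib against no treatment in 3 windows of time points, with SD over the 7, 9 and 10 time points of a window (9 late for NFKBIE in PC9), for the 8 genes in each line. BIRC3 goes from near 0 early to -2.50 in PC9 and -3.67 in PC9M2 late, while TNFAIP3, plotted by its dimmer probe, is below 0 in every window. With gefitinib in PC9M2 that probe was well above background on 3 of 10 late arrays.

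The untreated courses themselves changed over the day. Each slide held 1 line at 1 time point, so a change over time within a course cannot be told apart from differences between slides. A spline over time was fitted and its F-test by limma is given, and the size given is the range of the fitted curve. In PC9, 7 of the 8 genes changed over time, against 66.5% of all genes, with BIRC2 not called (range 0.58, adjusted p = 0.489). In PC9M2, 7 changed, against 67.5%, with TNFAIP2 not called (range 0.25, adjusted p = 0.339). With scan day as a random block the calls were lost for NFKBIA (adjusted p = 0.0639) and NFKB1 (adjusted p = 0.0938) in PC9M2 and for TNFAIP2 in PC9 (adjusted p = 0.0543), and with normexp for TNFAIP2 in PC9 (0.27, adjusted p = 0.717). The median range of the 8 genes was 1.09 in PC9 and 1.55 in PC9M2, against 0.99 and 0.97 over all genes.

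In untreated PC9M2, BIRC3 went from 9.66 at 0 h to 12.58 at 24 h (fitted range 3.30, adjusted p = 2.29e-12). RELB went from 13.33 to 14.73 (2.21, adjusted p = 2.79e-10), NFKBIE from 10.57 to 12.4 (2.10, adjusted p = 8.57e-09) and BIRC2 from 10.79 to 11.96 (1.39, adjusted p = 2.14e-06). In the PC9M2 gefitinib course BIRC3 went from 9.13 to 8.67 and RELB from 13.26 to 13.22. NFKBIE went there from 10.01 to 11.23 and BIRC2 from 10.73 to 11.09, so both were higher at 24 h than at 0 h with gefitinib too. In untreated PC9, NFKBIA had the largest range of the 8 genes, from 13.66 at 0 h to 15.11 at 24 h (1.91, adjusted p = 1.16e-09), and BIRC3 went from 11.35 to 12.48 (1.56, adjusted p = 0.00179). NFKBIA in untreated PC9M2 was 14.01 at 0 h and 14.21 at 24 h (0.65, adjusted p = 0.00382).

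**Figure D4:**
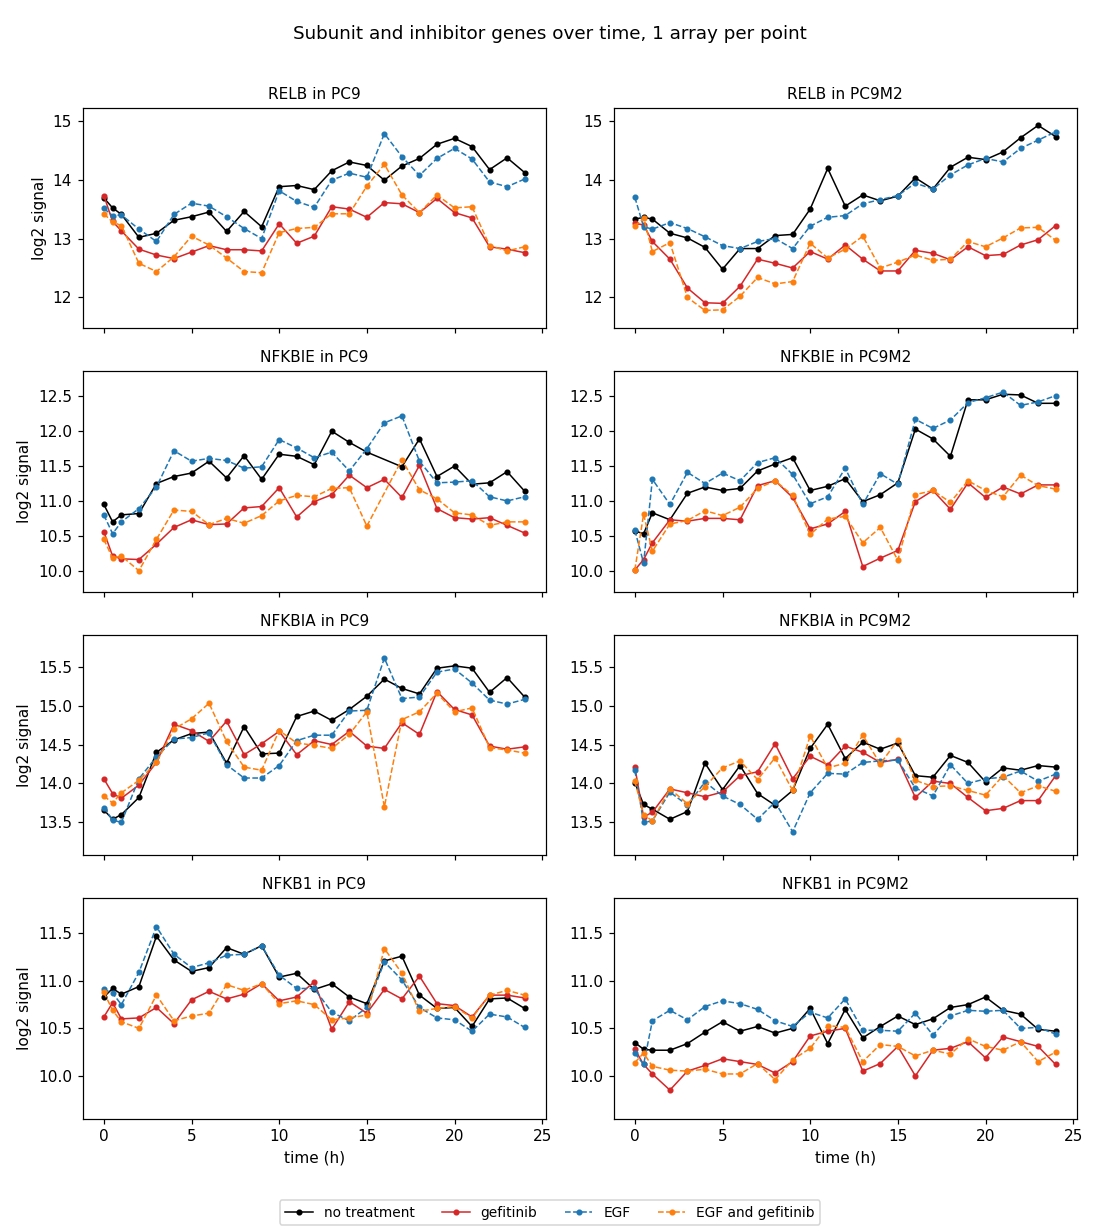
Log2 signal against time (h) for RELB, NFKBIE, NFKBIA and NFKB1 in PC9 (left) and PC9M2 (right), 1 array per point and 1 line per treatment. RELB and NFKBIE rise late without gefitinib in PC9M2, to 14.73 and 12.4 at 24 h, and NFKBIA rises in untreated PC9 to 15.11. NFKBIE also goes from 10.01 at 0 h to 11.23 at 24 h with gefitinib in PC9M2.

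The difference of the gefitinib effect between the lines was tested directly. Of the 8 genes, 2 passed, against 34.1% of all genes. The BIRC3 difference was lower in PC9M2, by 0.52 in mean (SE 0.16, adjusted p = 0.0119, lower at 18 of 26 time points). The RELB difference was lower in PC9M2 by 0.28 (SE 0.06, adjusted p = 0.00118, lower at 21 of 26). From the early to the late window in PC9M2, mean RELB went from 13.06 to 14.33 untreated and from 12.58 to 12.8 with gefitinib. For NFKBIE and NFKB1 the differences were -0.09 and -0.10 (adjusted p = 0.486 and 0.239). TNFAIP3 differed by 0.26 (adjusted p = 0.254) and its brighter probe by 0.32 (SE 0.07, adjusted p = 0.000319), the fall being smaller in PC9M2. The BIRC3 call was lost with unpaired courses (adjusted p = 0.293), with the inflated variance (adjusted p = 0.172), with time points 3 h apart (adjusted p = 0.148) and with another background correction (adjusted p = 0.0828). The RELB call was lost with unpaired courses (adjusted p = 0.371) and with time points 3 h apart (adjusted p = 0.195).

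Gefitinib was also compared in the presence of EGF, on other arrays than those above. In PC9, 6 of the 8 genes were lower and 1 higher with 78.9% of all genes called, 40% as lower, and in PC9M2, 5 were lower and 1 higher with 74.4% called, 38% as lower. TNFAIP3 was lower by 2.27 in PC9 (SE 0.17, adjusted p = 2.32e-12) and 1.99 in PC9M2 (SE 0.16, adjusted p = 2.36e-11), and with normexp it differed by -0.92 and -0.367. These values are of its dimmer probe, which was well above background on 14 of 26 PC9M2 arrays with both agents. The brighter TNFAIP3 probe gave -2.30 (SE 0.14) in PC9 and -1.97 (SE 0.15) in PC9M2. BIRC3 was lower by 1.56 in PC9 and 1.92 in PC9M2 (adjusted p = 2.54e-08 and 1.02e-06), the PC9M2 call again being lost with the inflated variance (adjusted p = 0.147). RELB was lower by 0.61 and 0.94, NFKBIE by 0.60 and 0.72, and TNFAIP2 was higher by 0.21 and 0.47. In PC9 the TNFAIP2 probe was saturated on all 26 arrays with both agents and on 21 of 26 with EGF, so no fold is given there. NFKBIA differed by -0.14 in PC9 and 0.12 in PC9M2 (adjusted p = 0.169 and 0.0597).

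The effect of EGF without gefitinib was tested over the 25 time points after 0 h. It shares the untreated arrays with the gefitinib comparison. Of the 8 genes, 2 passed in PC9, against 26.1% of all genes, and 3 in PC9M2, against 10.2%. TNFAIP3 was higher with EGF at 23 of 25 time points in PC9, by 0.42 in mean (SE 0.09, adjusted p = 0.000459), and at 24 of 25 in PC9M2, by 0.58 (SE 0.10, adjusted p = 0.000302), and with normexp the differences were 0.208 and 0.157. Its brighter probe was higher by 0.49 (SE 0.03) at 25 of 25 time points in PC9 and by 0.48 (SE 0.07) at 24 of 25 in PC9M2. The one exception of that probe was 0.5 h in PC9M2, at -1.11. NFKBIA was lower with EGF, by 0.11 in PC9 and 0.19 in PC9M2 (adjusted p = 0.0386 and 0.00535), and TNFAIP2 was lower by 0.12 in PC9M2 (adjusted p = 0.0186). BIRC3 in PC9M2 differed by 0.18 (adjusted p = 0.0883) and passed without 0.5 h, at 0.20 (adjusted p = 0.0331). None of these EGF calls passed with unpaired courses or with time points 3 h apart, where TNFAIP3 was represented by its dimmer probe. The brighter TNFAIP3 probe was not run under either alternative.

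The first hours after EGF, 0.5 to 5 h, held 6 time points and were tested on their own. Of the 8 genes, limma called 0 in either line, against 0.0377% and 0% of all genes. Over all genes that is 5 in PC9 and 0 in PC9M2, with 1717 and 1166 genes at an unadjusted p under 0.05. Without 0.5 h, limma called 2 genes in PC9M2 and 0 in PC9. TNFAIP3 in PC9M2 differed by 0.91 in mean, higher at 6 of 6 time points (SE 0.22, limma's adjusted p = 0.532), and its brighter probe by 0.35, higher at 5 of 6. In PC9 the brighter probe was higher at 6 of 6, by 0.46 (SE 0.07, limma's adjusted p = 0.0728), and the dimmer one by 0.11 at 4 of 6. On simulated data with 6 time points in PC9, 0 of 67 genes changed by 0.5 and 11 of 67 changed by 1 were recovered. The simulated noise was unpaired, so what the real paired test can detect was not tested.

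The lines were then compared under each treatment. They shared 0 slides and 0 scan days, so a line cannot be told apart from its scanning period. Without treatment 6 of the 8 genes were lower in PC9M2, with 68.1% of all genes called and 37.8% lower. With gefitinib it was 6, with 64.7% called and 34.8% lower. With EGF it was 6, with 69.8% called and 37.7% lower, and with both agents 6, with 67.7% called and 37.1% lower. In the main tests of these 4 comparisons 0 of the 8 genes were called higher in PC9M2. The 6 genes were not the same throughout. With EGF they held TNFAIP2 (-0.19) and not RELB, and under each other treatment RELB and not TNFAIP2. With another scaling of the arrays the TNFAIP2 difference with EGF turned to 0.55, so its count as lower is not a direction.

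**Figure D5:**
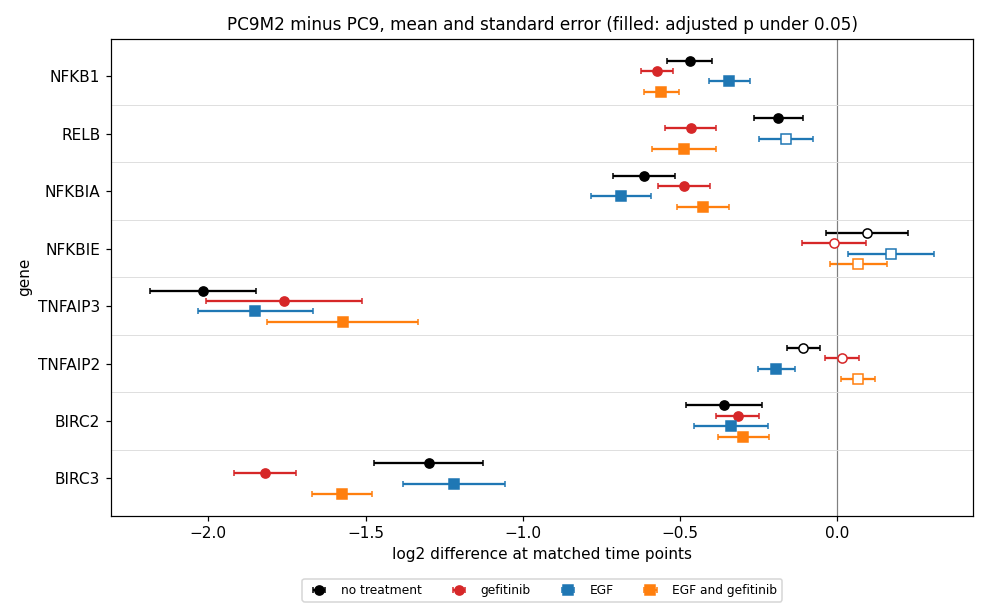
Mean log2 difference of PC9M2 against PC9 at matched time points, with standard errors, for 8 genes under 4 treatments. TNFAIP3 and BIRC3 lie below -1 under every treatment, and NFKBIE lies near 0 in mean with no call, while its untreated courses crossed.

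TNFAIP3 was lower in PC9M2 by 2.02 without treatment (SE 0.17, adjusted p = 1.26e-11), at 26 of 26 time points. With normexp this probe gave -0.773 without treatment and -0.267 with gefitinib, both still called. Its brighter probe gave -1.74 (SE 0.09) without treatment and -1.42 (SE 0.09) with gefitinib, lower at every time point in both. The untreated courses of that probe did not overlap between the lines, at 10.12 to 10.8 in PC9 and 8.04 to 9.29 in PC9M2. BIRC3 was lower by 1.30 untreated (SE 0.17, adjusted p = 1.29e-07) and by 1.82 with gefitinib (SE 0.10, adjusted p = 1.03e-15), the latter at 26 of 26 time points. By 15 to 24 h the untreated levels were 12.70 ± 0.56 in PC9 and 12.21 ± 0.44 in PC9M2 (SD, n = 10), against 11.76 ± 0.55 and 9.65 ± 0.35 (SD, n = 7) at 0 to 5 h.

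NFKBIA was lower in PC9M2 by 0.61 untreated (SE 0.10, adjusted p = 2.81e-06) and 0.49 with gefitinib (adjusted p = 9.17e-06). NFKB1 was lower by 0.47 (SE 0.07, adjusted p = 1.53e-06) and 0.57 (adjusted p = 3.83e-11), the latter at 26 of 26 time points. BIRC2 was lower by 0.36 (adjusted p = 0.00961) and 0.32 (adjusted p = 0.000206). The untreated BIRC2 call was lost with time points 3 h apart (adjusted p = 0.371) and with the inflated variance (adjusted p = 0.144), and the one with gefitinib with time points 3 h apart (adjusted p = 0.0596). RELB was lower by 0.19 (adjusted p = 0.0351) and 0.47 (adjusted p = 9.93e-06), and the untreated call was lost with scaling to the 75th percentile (adjusted p = 0.437), with time points 3 h apart (adjusted p = 0.325), with unpaired courses (adjusted p = 0.314) and with the inflated variance (adjusted p = 0.263). NFKBIE differed by 0.10 untreated (adjusted p = 0.532) and -0.01 with gefitinib (adjusted p = 0.938). Its untreated courses crossed, with paired differences from -1.01 to 1.28. The untreated means were 11.62 in PC9 and 11.28 in PC9M2 at 6 to 14 h, and 11.44 and 12.16 at 15 to 24 h. TNFAIP2 differed by -0.11 and 0.01 (adjusted p = 0.0723 and 0.824), with most PC9 arrays saturated, and with scaling to the 75th percentile it was higher in PC9M2 by 0.79 and 0.95. With EGF it was called lower in PC9M2, at -0.19 (adjusted p = 0.00411), and scaling to the 75th percentile reversed that to 0.55 (adjusted p = 2.46e-05), so no direction is given for TNFAIP2 between the lines. RELB with EGF did not pass, at -0.16 (adjusted p = 0.0882).

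Other genes of the pathway came from lists written with earlier results of these data known, and their counts are descriptions. Among genes often used as NF-κB targets, 17 of 22 were tested. With gefitinib 11 were lower and 3 higher in PC9 and 10 lower and 3 higher in PC9M2, against 72.2% and 66.5% of all genes called, with a median of -0.74 and -0.31 against -0.03 and -0.01 over all genes. CXCL1, a neutrophil chemokine, fell by 3.22 in PC9 (SE 0.33, adjusted p = 1.55e-09) and by 2.44 in PC9M2 (SE 0.17, adjusted p = 1.72e-12), with all 26 paired arrays of both lines lower. CXCL8, or interleukin 8, was well above background on 24 of 26 untreated PC9 arrays and on 0 with gefitinib, and was at least 5.03-fold lower (adjusted p = 1.63e-12). CXCL2 was lower at 26 of 26 time points in each line (adjusted p = 1.73e-12 and 7.78e-13), and since 9 and 4 of 26 gefitinib arrays were well above background, no size is given. BCL2L1, which encodes the survival protein BCL-XL, fell by 1.65 in PC9 (adjusted p = 4.54e-09), and IER3 by 1.31 in PC9M2 (adjusted p = 0.00385). EFNA1, an ephrin ligand, rose by 1.505 in PC9M2 at 26 of 26 time points (adjusted p = 5.62e-18). With EGF present in PC9, 5 target genes were higher with gefitinib and 11 lower, against 78.9% of all genes called. Among the 5 was LTB, which rose by 2.77 at 26 of 26 time points (SE 0.22, adjusted p = 7.98e-12).

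Between the lines, the target genes were mostly lower in PC9M2, 14 of 17 untreated and 11 of 17 with gefitinib, with 2 higher in each, against 68.1% and 64.7% of all genes called. The untreated median was -1.02, against -0.06 over all genes. TNF was lower at 25 of 26 time points (adjusted p = 2.41e-12), and since 10 of 26 PC9M2 arrays were well above background, no size is given. IER3 was lower by 1.83 (adjusted p = 8.03e-15) and the transcription factor gene IRF1 by 1.80 (adjusted p = 4.58e-17). With gefitinib, lymphotoxin beta, LTB, differed by -2.73 in PC9M2 against PC9 (adjusted p = 1.97e-10) and the adhesion molecule gene ICAM1 by -1.55 (adjusted p = 1.26e-12). With EGF, 2 of the target genes were higher and 6 lower in PC9, and 3 and 3 in PC9M2, against 26.1% and 10.2% of all genes called. CXCL8 was higher by 1.15 in PC9 (SE 0.08, adjusted p = 2.91e-10) at 25 of 25 time points, and LTB was lower by 1.44 in PC9 and 0.71 in PC9M2.

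Of the other subunit and IκB genes, 5 were tested. With gefitinib 1 was higher and 3 lower in PC9, and 3 higher and 2 lower in PC9M2, against 72.2% and 66.5% of all genes called. BCL3, an atypical IκB that acts in the nucleus, rose by 0.76 in PC9 (SE 0.13, adjusted p = 4.66e-06) and 1.14 in PC9M2 (SE 0.15, adjusted p = 1.22e-07). NFKBIB, which encodes IκBβ, fell by 0.63 and 0.38 (adjusted p = 2.05e-07 and 0.000514). NFKBIZ, the atypical IκBζ, fell by 0.20 in PC9 and rose by 0.49 in PC9M2, and the difference between the lines was 0.69 (SE 0.09, adjusted p = 1.89e-06).

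Of 10 kinase genes, 3 were higher and 5 lower with gefitinib in PC9, and 3 and 4 in PC9M2, against 72.2% and 66.5% of all genes called, as for the receptor and ubiquitin lists that follow. CHUK, which encodes the IκB kinase subunit IKKα, fell by 1.05 in PC9 (SE 0.11, adjusted p = 2.7e-09) and 0.73 in PC9M2 (adjusted p = 4.81e-09). IKBKB, which encodes IKKβ, rose by 0.66 and 0.70 (adjusted p = 4.67e-08 and 3.29e-09) and was higher at all 26 time points of both lines. TAB1, an adaptor of the kinase TAK1, rose by 1.18 and 0.85, and TAB3 fell by 0.98 and 0.55. Of 13 receptor and adaptor genes tested, 6 were higher and 5 lower in PC9 and 6 and 4 in PC9M2. TRAF5 rose by 2.05 in PC9 (SE 0.20, adjusted p = 7.57e-10) and 0.96 in PC9M2, and TNFRSF12A, the receptor of the cytokine TWEAK, fell by 1.41 and 0.85. Of 10 ubiquitin regulators, 3 were higher and 5 lower in PC9 and 4 and 5 in PC9M2. TNIP1, a binding partner of A20, fell by 0.94 in PC9 (SE 0.11, adjusted p = 2.55e-08) and 0.65 in PC9M2 (adjusted p = 0.000408).

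Pairs of the 8 genes were set against each other across the series. TNFAIP3 was represented by its dimmer probe, which was well above background on 14 of 26 PC9M2 arrays with gefitinib. After the mean of each course was taken off, correlations between pairs of the 8 genes over all arrays ran from -0.17 to 0.59. The highest was between BIRC2 and BIRC3, which are neighbours on chromosome 11, and RELB and NFKBIE followed with 0.48. Arrays of a course follow each other in time and share normalization, so these values are descriptions. By the same measure, the genes most like NFKBIA were ACTR6 (0.83), NBPF15 (0.82) and ARRDC3 (0.81), those most like TNFAIP3 were TBC1D5 (0.78), GLE1 (0.77) and CHMP7 (0.77), and those most like BIRC3 were CEP15 (0.84), RNPC3 (0.81) and SLC36A4 (0.81). For RELB they were TESMIN (0.76), SMIM29 (0.76) and MSI2 (0.75), and for TNFAIP2 MAN1A1 (0.70), SAMD9L (0.66) and BCAS1 (0.66).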

How the data were processed

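RNA of 208 cultures was hybridized by the authors to one-colour Agilent arrays and read with Feature Extraction (version 10.5.1.1 per the file headers). The deposited values are background-corrected intensities, 1 file per array, and a table that the authors normalized, which differed from quantile normalization of the scanner intensities by at most 0.14%. Here the intensities were quantile normalized over 45015 features, set to a floor of 1 and log2 transformed. Spots marked as outliers were removed (0.0793% of values). Spots of a probe were averaged and the probe of largest variance represented its gene. RefSeq accessions named 24794 of 41000 probes. A gene was tested if well above background on 13 or more of 26 arrays of a course, which left out 3700 genes.

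Time points were paired, each slide of 4 treatments being 1 line and time point, and differences were tested with limma 3.58.1 (R 4.3.3) with Benjamini-Hochberg adjustment over every gene tested, at a threshold of 0.05. For change over time a spline of 4 degrees of freedom was fitted. On simulated data, 40 of 67, 64 of 67 and 66 of 66 genes changed by 0.5, 1 and 2 (log2) were recovered for gefitinib in PC9. The simulated arrays had independent noise with the SD of untreated PC9, without slide pairing or correlation between time points. These shares are therefore not those of the real data. The normexp alternative used median spot signals. Alternatives covered scaling, background, source table, probe, filter, floor, pairing, the methods' t-test, one-sided tests, autocorrelation and scan day. Leaving out 0.5, 11 or 16 h was chosen after seeing the data. The genes and lists were chosen with earlier results of these data known. All listed genes were named, with the 3 most correlated genes of 5 members. Genes of the other lists were taken from the up to 4 called genes largest by difference in a comparison. Not every such gene or comparison is given.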

Additional observations from a re-analysis of the deposited data

Results flagged for a closer look

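The gefitinib effect differed between the lines for 2 of the 8 genes by limma's test of the difference itself, against 34.1% of all genes. For BIRC3 it was -0.52 on the log2 scale in PC9M2 minus PC9, lower at 18 of 26 time points (adjusted p = 0.0119). For RELB it was -0.28, lower at 21 of 26 time points (adjusted p = 0.00118). Line and scanning period cannot be told apart, and neither call held with unpaired courses or with time points 3 h apart. TNFAIP3, counted by its dimmer probe, did not pass (0.26, limma's adjusted p = 0.254). Its brighter probe differed by 0.32, the other way from BIRC3 and RELB, and passed (limma's adjusted p = 0.000319). Neither alternative was run for that probe.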

How the results depend on the processing

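Values of the 8 genes in all comparisons were recomputed under each alternative. The deposited table changed no call or sign among 136 results. Of the same 136, scaling to the 75th percentile lost 2 calls, gained 5 and turned the sign of 5, and normexp background correction lost 3, gained 4 and turned 9. Unpaired courses lost 10 and turned 1 of 104, time points 3 h apart lost 19 and turned 1 of 88, and variance inflated for autocorrelation lost 16 of 88. Of the values whose sign turned, only TNFAIP2 between the lines with EGF had been called. Unless stated, the cause was not tested.

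Several values reversed. With normexp these were BIRC2 (-0.019), NFKBIE (0.005) and TNFAIP2 (0.032) for EGF in PC9, NFKBIA (-0.24) and TNFAIP2 (-0.11) for early EGF in PC9, and TNFAIP2 between the lines with both agents (-0.067) and with gefitinib (-0.19), in the difference of the gefitinib effect (-0.16) and late minus early in PC9 (0.31). With scaling to the 75th percentile these were NFKBIA for gefitinib with EGF in PC9M2 (-0.018), NFKBIE (0.008) and TNFAIP2 (0.062) for EGF in PC9, and TNFAIP2 between the lines with EGF (0.55) and without treatment (0.79). BIRC2 reversed at 3 h spacing in the difference of the gefitinib effect (-0.12), NFKBIE with unpaired courses for EGF in PC9 (0.02), and NFKBIE without 16 h between the lines with gefitinib (0.002).

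Of the 8 genes, EGF called 1 in PC9 with 75th percentile scaling, without a filter, with inflated variance or without 11 h. The main test called 2, against 26.1% of all genes. At 3 h spacing or unpaired EGF called 0 in PC9, with 699 and 451 of 13261 genes called. In PC9M2 EGF called 1 with inflated variance and 0 at 3 h spacing or unpaired, with 723, 280 and 104 genes called. The main test there called 3, against 10.2% of all genes. Gefitinib in PC9 called 4 at 3 h spacing and 5 with inflated variance, against 8 and 72.2% of all genes in the main test. The difference of the gefitinib effect called 0 at 3 h spacing or unpaired and 1 with inflated variance. Over all genes these counts were 1043, 2016 and 2864. Between the lines, the one-sided test for higher in PC9M2 called 0 under each treatment, since it cannot call a lower gene. With EGF, 3 h spacing called 3, with 5752 of all genes called.

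Over all genes, EGF called 699 at 3 h spacing and 451 unpaired in PC9, and 280 at 3 h spacing, 104 unpaired and 723 with inflated variance in PC9M2. The difference of the gefitinib effect called 1043 at 3 h spacing, 2016 unpaired and 2864 with inflated variance. One-sided line tests called 3978 without treatment, 3935 with gefitinib, 4220 with EGF and 4021 with both agents. At 3 h spacing the lines differed in 5877, 5752 and 5706 genes without treatment, with EGF and with both agents, the last in 5848 with inflated variance. Change over time in untreated PC9M2 called 5167 with scan day as a block. Early EGF in PC9 called 9 with 75th percentile scaling, 11 with the filter for all 26 arrays, 0 with a floor of 16, 0 without a filter, 1 with normexp, 12 with the brightest probe, 11 with scan day, 3 unpaired and 0 without 0.5 h, and in PC9M2 it called 2 without 0.5 h. Leaving out 0.5, 11 or 16 h was chosen after seeing the data. The main tests pair arrays by time point, and the unpaired courses are the alternative to that pairing.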
